A study of Mus musculus with 24 samples.

Results

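The ventricle of embryonic day 12.5 (E12.5) mice was set against the ventricle of adult mice of 4 groups. The 15 arrays were taken from the 24 of the series by their labels: 3 arrays of E12.5 and 3 each of 3-month females, 5-month males and 2 groups of 1 year. All animals were of the inbred FVB strain, with no treatment or engineered allele named in the labels, and total RNA of heart ventricle was hybridised to single-channel Affymetrix mouse arrays. Of the 1-year groups, the first has titles with the suffix f and is described as female, while the other has the suffix m without a sex in its description, so they are called 1-year f and 1-year m. The sex of the embryos is not given. Titles of the E12.5 samples carry 3 numbers each, which the labels do not explain, and nothing says whether an array stands for 1 animal or a pool, so p-values here reflect only how far these arrays spread, which may be technical. Of 12654 probe sets, 9977 were neither controls nor at 0 on all 24 arrays, and 9952 of these entered the test, standing for 7406 genes.

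The E12.5 ventricle of a mouse is a small, trabeculated chamber of dividing cardiomyocytes, coated by epicardium and filled with nucleated primitive red cells that carry embryonic globins. The embryo lives at low oxygen tension and its heart burns mainly glucose and lactate. After birth cardiomyocytes stop dividing and enlarge, build transverse tubules and dense mitochondria, turn to fatty acids as fuel and replace fetal with adult isoforms of contractile proteins. Each adult group had the same weight in the adult mean, and a difference is given in log2 units as adult minus E12.5, together with its standard error (SE) from limma. Signals are linear, scaled probe-set intensities. They compare samples for 1 probe set, but not 1 probe set with another.

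Median signals of the arrays lay between 195.5 and 225.2. Log2 signals of adult arrays of different groups correlated with r from 0.894 to 0.938, arrays of the same group with r from 0.907 to 0.935, and E12.5 arrays with adult arrays with r from 0.77 to 0.817, all across probe sets, which are not independent. The first principal component of the series held 30.2% of the variance. Replicate 3 of the 5-month males stood apart at the top of its range, with a highest signal of 63256 where the other 14 arrays reached 24776 to 42251. Replicate 2 of the 3-month females had 301.8 for Myl2, a ventricular light chain, where the other 11 adult arrays had 13531 to 54277. The control probe set of 18S ribosomal RNA read 3730 to 8670 at E12.5 and 242 to 1670 in adults, a difference of -3.39 (exact permutation test over the 15 arrays, two-sided p = 0.0022, the smallest 455 permutations can give). The 3' to 5' ratio of actin, a measure of RNA integrity, was 0.853 to 1.23 at E12.5 and 0.91 to 1.59 in adults (exact permutation p = 0.0132, and 0.0659 without replicate 3 of E12.5), and that of Gapdh gave p = 0.76 by the same exact test. The part of RNA make-up in the results below was not tested. In whole ventricle, fewer cells of a type and less RNA per cell cannot be told apart.

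At an adjusted p under 0.05 (limma, Benjamini-Hochberg), 4081 of 9952 probe sets differed between adults and E12.5, or 41.0%. Of these 1909 were higher in adults (19.2%) and 2172 lower (21.8%). At least 2-fold, 1201 probe sets rose (12.1%) and 1361 fell (13.7%), and at least 16-fold, 48 rose and 68 fell. All 12 adult arrays lay above all 3 E12.5 arrays for 1215 probe sets (12.2%) and below them for 1615 (16.2%). Counted by gene, with each gene read from its brightest probe set, 1565 of 7406 rose (21.1%) and 1687 fell (22.8%), 43.9% together. The median difference over all genes was 0.02. Several probe sets were measured for 1036 genes, and for 24 of these genes probe sets passed the test in opposite directions.

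**Figure D1:**
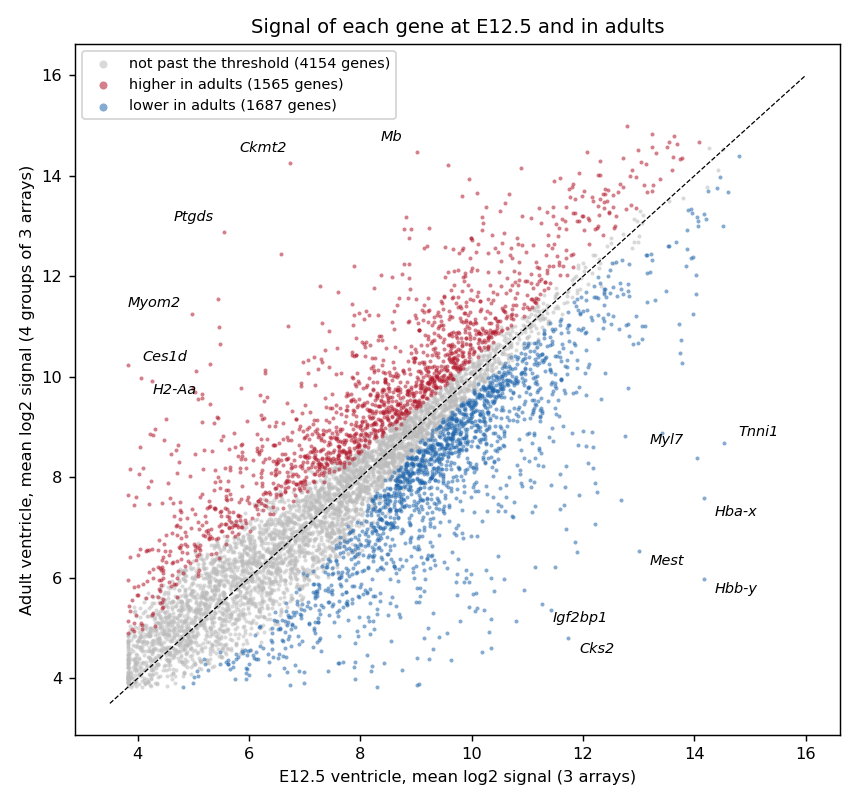
Mean log2 signal of 7406 genes at E12.5 (x axis, 3 arrays) and in adults (y axis, mean of 4 groups of 3 arrays); 1565 red genes rose, 1687 blue genes fell and the dashed line marks equal signal. Ckmt2 and Ptgds lie farthest above the line and Hbb-y and Cks2 farthest below it.

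The 14 largest rises were taken only from genes for which every adult array lay above every E12.5 array. They were in genes of varied roles. Ckmt2, the mitochondrial creatine kinase of striated muscle, read 165.5, 66.9 and 111.0 on the E12.5 arrays and 15080 at the lowest, 18780 at the median and 35481 at the highest in adults. The difference was 7.52 ± 0.19 (SE). Myoglobin (Mb), the oxygen store of muscle, read 350.2, 721.2 and 544.6 at E12.5 and 15525, 20830 and 45471 in adults, a rise of 5.46 ± 0.21 on the probe set of highest signal, while a second probe set of Mb stood at -0.01. Both genes were separated by more than an order of magnitude between the closest arrays.

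For many of the largest rises the embryonic signal was no brighter than that of control probe sets for genes absent from mice, of which the 95th percentile was 124.6. Where all arrays of 1 side lay below that level, the fold is a lower bound against it. Where only some did, as for Ckmt2 on 2 of 3 E12.5 arrays, the fitted difference is given, and its size and rank depend on the floor. Ptgds, the prostaglandin D synthase, read 39.1, 43.3 and 60.1 at E12.5 and 3924, 7599 and 13079 in adults (lowest, median, highest), at least 60.7-fold higher. All 3 probe sets of Ptgds rose. Mapt, the microtubule-binding protein tau, was at least 24.1-fold higher, with 31.1 to 52.5 at E12.5 and 1932, 2818 and 4481 in adults. Myom2, the M-band protein of mature sarcomeres, was at least 19.6-fold higher, and Zbtb16, a zinc finger transcription factor, at least 16.4-fold. For each of these genes the lowest adult array lay above the highest E12.5 array, as the rule for choosing them required.

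Ces1d, a carboxylesterase that hydrolyses lipids, was at least 9.7-fold higher in adults, and Plin4, a coat protein of lipid droplets, at least 7.73-fold. Cd36 and Slc27a1, which bring fatty acids across the plasma membrane, were at least 8.86-fold and 9.85-fold higher. The E12.5 arrays read 16.4, 17.6 and 16.2 for H2-Aa, the alpha chain of a class II antigen-presenting molecule, against 665.3 at the lowest in adults, so that the rise was at least 8.09-fold. H2-K2, a class I gene of the major histocompatibility complex, rose by 5.87 ± 0.31, though near-identical class I genes can share such probes. Cdh13, an anchored cadherin that binds adiponectin, was at least 7.07-fold higher. Cpxm2, a secreted carboxypeptidase-like protein, had 127.0, 49.7 and 11.6 at E12.5 and 991.2, 1568 and 2270 in adults, a difference of 5.16 ± 0.58.

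The largest falls were taken only from genes for which every adult array lay below every E12.5 array. They included embryonic globins, genes of dividing cells, imprinted genes and fetal contractile genes. Hbb-y, the embryonic beta-like globin of primitive red cells, read 25496, 16535 and 14802 at E12.5 and 8.6, 82.35 and 200 in adults (lowest, median, highest). The fitted difference was -8.18 ± 0.63, with 10 of 12 adult arrays under the control level. Hba-x, the embryonic alpha-like globin zeta, fell by 6.58 ± 0.29, from 11872 to 29696 on the E12.5 arrays to 113.5 to 285.1 in adults. Hbb-bh1, another embryonic beta-like chain, fell by 5.37 ± 0.38. The 3 embryonic chains were lower on all 12 adult arrays, as the rule for choosing the largest falls required.

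Cks2, a small subunit of cyclin-dependent kinases, had 3234, 3412 and 3578 at E12.5 and at most 88.4 in adults, which is at least 27.3-fold lower. Mki67, the proliferation antigen Ki-67, was at least 10.5-fold lower, and Ect2, which drives cytokinesis, fell by 5.37 ± 0.52. Among imprinted genes, Mest read 7933, 8020 and 8586 at E12.5 and 15.5, 129.2 and 186.9 in adults, a difference of -6.46 ± 0.49. Plagl1, a transcription factor that governs a network of imprinted genes, was at least 22.1-fold lower. Hmga2, an architectural chromatin protein of embryonic cells, was at least 9.34-fold lower, Igf2bp1, a fetal RNA-binding protein, fell by 5.78 ± 0.46, and Sox11, a transcription factor of embryonic progenitors, fell by 5.29 ± 0.46. Cnn1, the calponin of smooth muscle that embryonic cardiomyocytes also make, was at least 14.3-fold lower. Each of these genes separated the embryonic from the adult arrays without overlap, which was a condition of their choice.

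Lists of genes by function and by cell type were then counted against the 21.1% of all genes that rose and the 22.8% that fell. The lists with the highest shares of rises were branched-chain amino acid and ketone use (11 of 12), fatty acid oxidation (26 of 31), oxidative phosphorylation (47 of 59) and the tricarboxylic acid cycle (18 of 23). Those with the highest shares of falls were fetal and atrial sarcomere genes (11 of 13), DNA replication and repair (31 of 38), the cell cycle (47 of 58), erythroid genes (17 of 22) and chromatin (19 of 25). The lists were chosen with earlier results of these data known, so their counts are a description.

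**Figure D2:**
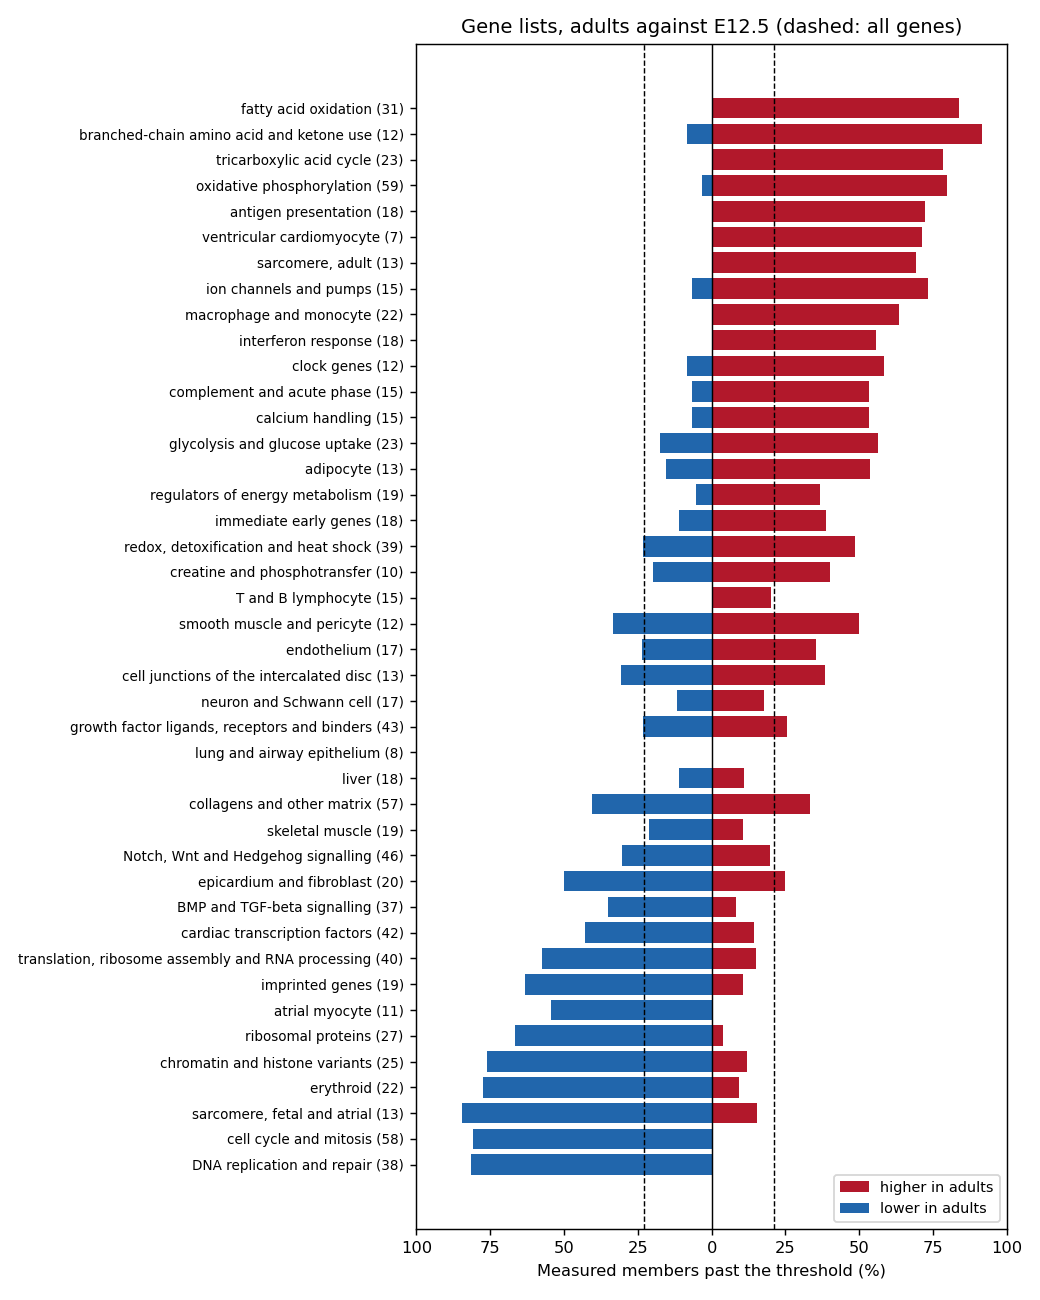
Share of the measured members of each gene list that passed the test (x axis, percent), higher in adults to the right in red and lower to the left in blue, with the number of measured members in brackets. The dashed lines mark the 21.1% of all genes that rose and the 22.8% that fell; fatty acid oxidation stands at the top and DNA replication at the bottom.

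Contractile genes split by isoform. Of 13 measured adult sarcomere genes 9 rose and 0 fell (median difference 1.05), and of 13 fetal and atrial sarcomere genes 2 rose and 11 fell (median -1.53). Slow skeletal troponin I (Tnni1), the inhibitory troponin subunit of the fetal heart, read 27847, 23154 and 20598 at E12.5 and 249.9, 424.7 and 569.8 in adults, so that it fell by 5.85 ± 0.19. Its cardiac counterpart Tnni3 read 7340, 7052 and 6763 at E12.5 and 22282, 31900 and 63256 in adults, a rise of 2.22 ± 0.18, or 2.13 without replicate 3 of the 5-month males. Both troponins separated the groups, and they went in opposite directions.

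Fitted differences of the myosin heavy chains were smaller than those of the troponins. The alpha heavy chain Myh6, the fast motor of the adult mouse ventricle, rose by 1.6 ± 0.17, with 8737, 10140 and 10076 at E12.5 and no adult array under 20642. On replicates 1 and 2 of the 3-month females Myh6 had the highest signal of the array, at 34456 and 27511. Such bright signals were also read for Tnni3, Myl2 and cardiac actin (Actc1), and at E12.5 for Tnni1 and Myh7. Whether they still scale with the amount of RNA was not tested, so the size of these differences may be affected. The beta heavy chain Myh7, the slow fetal motor, read 30040, 21124 and 23985 at E12.5 and 7097, 12360 and 24449 in adults, so the groups overlapped. It fell by 0.92 ± 0.26 (limma adjusted p = 0.00628), and stood at -0.78 with a limma adjusted p = 0.0547 without replicate 1 of E12.5. Among light chains, the atrial regulatory chain Myl7 fell by 5.67 ± 0.73 while spreading from 38.1 to 5081 in adults, and the ventricular chain Myl2 stood at -0.31 ± 0.65 (adjusted p = 0.744). Without the array of 3-month females that read 301.8, Myl2 stood at 0.17 (limma adjusted p = 0.566). The atrial essential chain Myl4 fell by 1.29 ± 0.41, a call lost without replicate 1 of E12.5 (-1.14, limma adjusted p = 0.0799) or replicate 2 (-1.26, limma adjusted p = 0.0561), and the ventricular chain Myl3 rose by 0.95 ± 0.2.

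Actin did not follow the fetal label of its isoform. Skeletal actin Acta1, which hearts are known to make early and under stress, read 3484, 4776 and 3984 at E12.5 and 3730, 11850 and 12882 in adults, a rise of 1.23 ± 0.18 with 1 adult array within the embryonic range, while cardiac actin Actc1 stood at 0.28 ± 0.14 (limma adjusted p = 0.116). Smooth muscle genes that embryonic cardiomyocytes express fell, with Acta2 at -3.04 ± 0.19 and Tagln at -3.08 ± 0.14. The M-band protein Myom1 rose by 1.81 ± 0.12. Of the natriuretic peptides, Nppa fell by 1.53 ± 0.22 and Nppb rose by 0.94 ± 0.22. The Nppb value was led by the 3-month females at 20800 ± 3830 (SD, n = 3), against 5030 ± 434 at E12.5, and was 0.57 without that group.

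Of 25 listed pairs of related genes with an early and an adult member, 14 had both members measured, each by a tested probe set naming no other gene. The early member fell in 10 pairs, the adult member rose in 11, and both happened in 8. Without replicate 1 of E12.5 these counts were 7, 11 and 5. Among these were the glucose transporters. Slc2a1, the insulin-independent carrier of embryonic cells, read 1522, 1321 and 1217 at E12.5 and 18.4, 46.65 and 181.7 in adults, and Slc2a4, the insulin-responsive carrier of muscle, read 112.2, 358.9 and 179.5 at E12.5 and 2783, 3389 and 3612 in adults. The former fell by 4.67 ± 0.63 and the latter rose by 4.09 ± 0.2. For hexokinase, which traps glucose in the cell, Hk1 fell by 2.11 ± 0.13 and Hk2 rose by 2.16 ± 0.11. The same pattern held for elongation factor 1 alpha, where Eef1a1 fell by 0.54 ± 0.12 and the muscle and nerve isoform Eef1a2 rose by 4.63 ± 0.21, and for subunit 6a of cytochrome c oxidase, where Cox6a1 fell by 0.78 ± 0.11 and the heart isoform Cox6a2 rose by 2.41 ± 0.2.

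The remaining pairs varied. The heart isoform Cox7a1 rose by 3.89 ± 0.11, from 413.9 to 523.1 at E12.5 to 5894 to 9658 in adults, while its ubiquitous partner Cox7a2 also rose, by 0.73 ± 0.12. Ldhb, the lactate dehydrogenase subunit of oxidative tissue, rose by 1.43 ± 0.17, and Ldha stood at -0.04 ± 0.12. Slc25a4, the muscle carrier that exchanges ATP for ADP across the inner mitochondrial membrane, rose by 1.05 ± 0.17, and Slc25a5 fell by 0.38 ± 0.11, a call lost without replicate 1 of E12.5 (-0.29, limma adjusted p = 0.0765). Other probe sets of Slc25a5, at -1.15 and 0.24, did not pass the test. Ppara, the receptor that switches on genes of fat oxidation, rose by 2.99 ± 0.14, and Ppard stood at -0.15 ± 0.67. In alpha globin, Hba-x fell while the adult chain Hba-a1 stood at -0.45 ± 0.27.

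**Figure D3:**
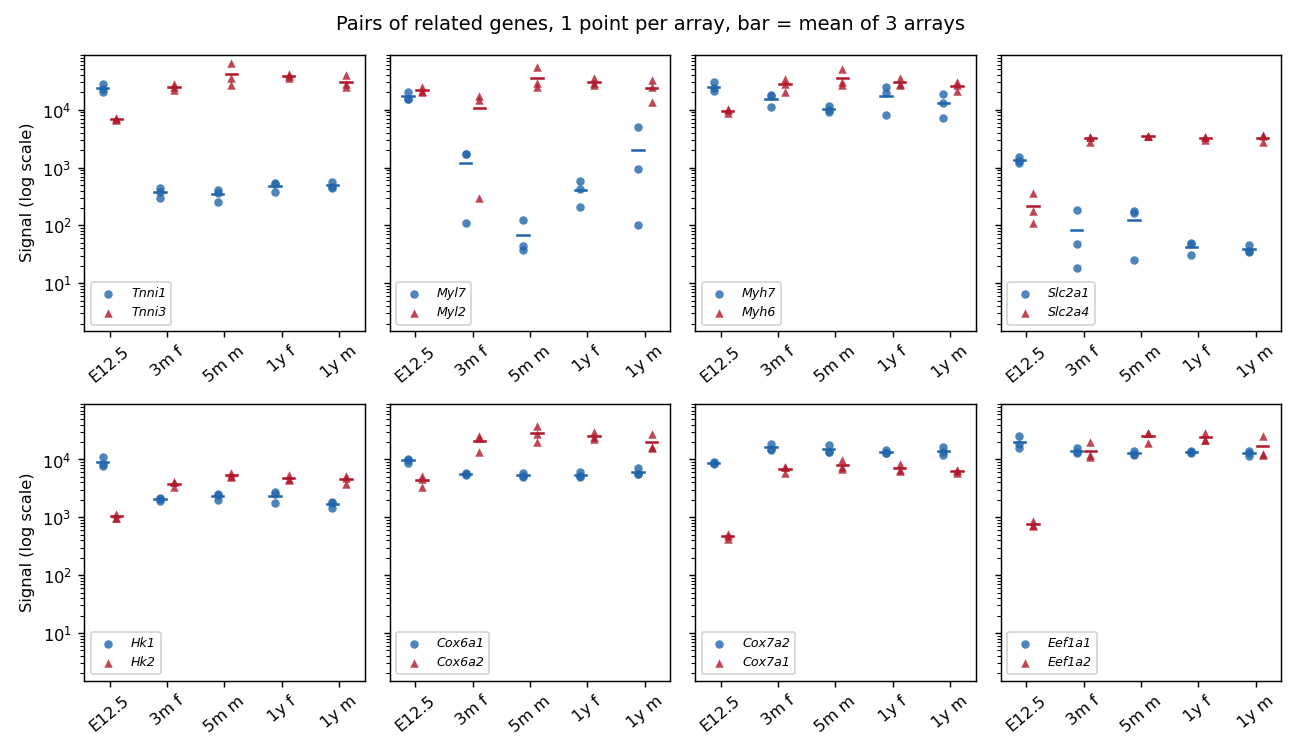
Signal on each array (y axis, log scale) of 8 pairs of related genes at E12.5 and in the 4 adult groups (x axis), blue circles for the early and red triangles for the adult member, bars for the mean of 3 arrays; each gene is compared with itself across groups, since probe sets differ in brightness. Tnni1 fell by 5.85 while Tnni3 gains 2.22, and the single red triangle at 301.8 in the Myl2 panel is replicate 2 of the 3-month females.

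Excitation and calcium genes rose more often than they fell. Of 15 measured calcium-handling genes 8 rose and 1 fell (median 1.13). S100a1, a calcium sensor that raises pump and release-channel activity, rose by 4.36 ± 0.11 on its brightest probe set, while its other probe sets stood at -0.24 and -0.26. Hrc, a calcium-binding protein of the sarcoplasmic reticulum, rose by 2.69 ± 0.12 and the L-type channel Cacna1c by 2.3 ± 0.11. Atp2a2, the pump that refills the reticulum, and the release channel Ryr2, named here after their values were seen, rose by 2.13 and 2.18. The sodium-calcium exchanger Slc8a1 fell by 0.8 ± 0.14, from 5765, 6457 and 7421 at E12.5 to 2674, 3743 and 4704 in adults, and its other probe sets fell too.

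Of 15 ion channel and pump genes 11 rose and 1 fell (median 1), a count that was 7 when the 3-month females alone stood for adults. Kcnk3, a background potassium channel, and Kcnj11, the pore of the channel gated by ATP, were at least 6.12-fold and 8.98-fold higher, with 28.0 to 53.4 and 76.4 to 82.0 at E12.5. Fxyd1, phospholemman, a regulator of the sodium pump, rose by 2.15 ± 0.12. The gene that fell was Kcne1, a subunit of the slow delayed rectifier, at -2.83 ± 0.32. Of 13 genes of the intercalated disc 5 rose and 4 fell. The desmosomal and adherens plaque genes Jup (2.54 ± 0.15), Dsp (1.73 ± 0.14) and Ctnna1 (1.16 ± 0.11) rose, and the atrial and conduction connexin Gja5 (-1.1 ± 0.26), Vcl (-0.69 ± 0.13) and Dsg2 (-0.59 ± 0.15) fell. The other probe sets of Vcl and Dsg2, at -0.29 and -1.37, did not pass the test. Without replicate 1 of E12.5 the count of rises was 3.

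Genes that burn fat rose nearly throughout. Of 31 measured genes of fatty acid uptake and oxidation 26 rose and 0 fell, with a median of 2.36, and 5 did not pass the test. Pdk4, the kinase that shuts pyruvate out of the mitochondrion, read 244.8, 195.5 and 273.1 at E12.5 and 2250, 4522 and 14456 in adults, a rise of 4.33 ± 0.34. Fabp3, the fatty acid carrier of heart cytosol, read 1856, 1741 and 2093 at E12.5 and 15486, 17480 and 33758 in adults, a rise of 3.28 ± 0.17. Neither gene overlapped between the groups. Cpt1a, the liver-type gate of fatty acid entry into mitochondria that fetal hearts also use, stood at -0.31 ± 0.24 (limma adjusted p = 0.344).

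Respiration followed. In oxidative phosphorylation 47 of 59 genes rose and 2 fell (median 1.16), and in the tricarboxylic acid cycle 18 of 23 rose and 0 fell (median 1.24). Sdha, the flavoprotein of complex II that belongs to both lists, rose by 2.23 ± 0.13, Ogdh of the oxoglutarate dehydrogenase complex by 2.42 ± 0.13 and Pdha1 of pyruvate dehydrogenase by 1.99 ± 0.13. Ogdh read 3180, 2486 and 2976 at E12.5 and 12287, 15240 and 20698 in adults. The falls were Cox6a1, described above, and Atpif1, the inhibitor of the ATP synthase, at -0.94 ± 0.11 with 5962 to 7252 at E12.5 and 2647 to 4689 in adults. The typical respiratory gene thus gained about as much as the list median, well below the rise of the heart isoform Cox7a1.

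Sugar genes split. Of 23 genes of glycolysis and glucose uptake 13 rose and 4 fell (median 0.52). Pfkm, the muscle form of the enzyme that commits sugar to glycolysis, rose by 3 ± 0.13 and the platelet form Pfkp fell by 1.4 ± 0.25, next to the transporter and hexokinase pairs above. Fbp2, the muscle bisphosphatase that runs the opposite step, read 11.9 to 21.1 at E12.5 and 55.3, 362.9 and 688.2 in adults, at least 1.8-fold higher on average. However, 4 of 12 adult arrays lay under the control level, and the 3-month females averaged 67.6. Pgam2 and Eno3, muscle isoforms of late glycolysis, rose by 1.94 ± 0.11 and 2.02 ± 0.12. The direction of a glycolytic gene thus differed by isoform within the same step.

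Of 12 genes that break down branched-chain amino acids or ketones 11 rose and 1 fell (median 1.25). Bckdha of the branched-chain dehydrogenase rose by 2.85 ± 0.14, Oxct1, the enzyme that activates ketone bodies for use, by 2.41 ± 0.14 and Hibadh by 2.14 ± 0.12, whereas the cytosolic aminotransferase Bcat1, known from embryonic and tumour cells, fell by 2.44 ± 0.48. In creatine and phosphotransfer 4 of 10 genes rose and 2 fell. Beside Ckmt2, adenylate kinase Ak1 rose by 2.53 ± 0.11 and the creatine transporter Slc6a8 by 2.33 ± 0.15, while Gamt, which makes creatine, fell by 1.28 ± 0.29. The other probe set of Slc6a8 stood at 0.02. Among 19 regulators of energy metabolism 7 rose and 1 fell. The retinoid receptor Rxrg was at least 3.13-fold higher, and Hif1a, the sensor-controlled factor of low oxygen, fell by 1.74 ± 0.16, from 6577, 7947 and 6955 at E12.5 to 1566, 2133 and 2732 in adults.

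Genes of cell division fell together. Of 58 measured cell cycle and mitosis genes 0 rose and 47 fell, with a median of -2.46, and of 38 genes of DNA replication and repair 0 rose and 31 fell, with a median of -2.18. Rrm1 and Rrm2, the subunits of ribonucleotide reductase that makes DNA precursors, stood at -4.6 ± 0.46 and -4.04 ± 0.44. Rrm1 read 1580, 1381 and 1626 at E12.5 and 19.5, 56.45 and 166.2 in adults. Uhrf1, which carries DNA methylation through replication, was at least 10.5-fold lower. The imprinted inhibitor Cdkn1c, a brake on the cycle counted among these genes, also fell (-4.54 ± 0.19), from 9956, 10573 and 12468 at E12.5 to 267.6, 506.6 and 879.4 in adults.

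Because these genes moved together, their promoters were searched for letters known from cell cycle control, in windows from 250 bases before to 50 after the start (RefSeq, GRCm38.p6). E2F factors are known to bind the letters TTTCCCGC, TTTGGCGC or TTTCGCGC, searched on both strands. Each motif below was searched on its own, so matches of different motifs may overlap. They occurred in 10 of 28 replication genes that fell and have a window (35.7%), in 3 of 37 such cell cycle genes (8.11%), in 3.79% of the 5908 genes tested that have a window and in 2.12% of all 27025 genes with a window. The letters TTTGAA, the core of the cell cycle homology region found in mitotic genes, occurred in 21 of the 37 cell cycle genes (56.8%), in 5 of the 28 replication genes (17.9%) and in 15.6% of the genes tested that have a window. The CCAAT letters occurred in 73% and 64.3% of the same 2 sets and in 42.5% of the genes tested that have a window. A match is a description of the letters, not a bound site. The following stretches, read from the gene's strand, show the E2F letters in capitals, from either strand, in 6 genes that fell.
Cdk1, chr10:69353016-69353063, minus strand: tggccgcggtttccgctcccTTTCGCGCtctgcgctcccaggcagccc
Uhrf1, chr17:56304108-56304155, plus strand: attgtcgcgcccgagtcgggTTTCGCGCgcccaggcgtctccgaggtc
Dnmt1, chr9:20952815-20952862, minus strand: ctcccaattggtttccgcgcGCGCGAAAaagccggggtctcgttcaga
Cdc6, chr11:98907993-98908040, plus strand: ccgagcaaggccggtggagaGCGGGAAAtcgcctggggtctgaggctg
Mcm7, chr5:138172021-138172068, minus strand: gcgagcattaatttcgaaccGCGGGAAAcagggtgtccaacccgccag
Pola1, chrX:93632266-93632313, minus strand: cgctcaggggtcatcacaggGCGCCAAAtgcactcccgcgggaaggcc
Cdk1, the kinase that drives mitosis, stood at -4.93, Dnmt1, the maintenance DNA methyltransferase, at -3.53, the loading factor Cdc6 at -3.36, the helicase subunit Mcm7 at -2.61 and Pola1, the catalytic subunit that starts DNA strands, at -1.52. These 5 genes were named after their promoters were searched. Of respiratory genes that rose, 1 of 35 in oxidative phosphorylation, 0 of 22 in fatty acid oxidation and 1 of 16 in the tricarboxylic acid cycle held TCAAGGTCA, the letters of estrogen-related receptors, against 0.288% of the genes tested that have a window.

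Chromatin and protein synthesis genes were mostly lower in adults. Of 25 chromatin genes 3 rose and 19 fell (median -1.46). Hmgb2, a DNA-bending protein of dividing cells, was at least 8.12-fold lower, and the histone variant H2az1 fell by 3.43 ± 0.21, from 3213, 4318 and 5439 to 256.1, 403.4 and 541.8. Lmna, the lamin of stiff nuclei, rose by 1.08 ± 0.14 and the class II deacetylase Hdac5 by 0.56 ± 0.13. Of 27 ribosomal protein genes 1 rose and 18 fell (median -0.6), among them Rpl13a (-2.94 ± 0.21), Rps19 (-2.32 ± 0.15) and Rpl10a (-1.77 ± 0.13), with Rpl41 higher by 1.14 ± 0.24. Of 40 genes of translation, ribosome assembly and RNA processing 6 rose (3 without replicate 3 of E12.5) and 23 fell. Npm1, the nucleolar chaperone of ribosome assembly, fell by 2.05 ± 0.2 and the splicing protein Snrpg fell by 2.35 ± 0.16. The 18S control probe set was also lower in adults, as given above, and whether this is related to the genes of this paragraph was not tested.

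Transcription factors of heart formation were lower in adults more often than higher. Of 42 measured, 6 rose and 18 fell (median -0.54). After Sox11 the largest falls were Twist1, a factor of mesenchyme, at least 4.75-fold lower, and Id2, an inhibitor of helix-loop-helix factors, at -4 ± 0.24, from 3760, 4605 and 5751 to 167.7, 283.3 and 492.7. Hand2, best known from the embryonic right ventricle, was higher in adults by 1.59 ± 0.24, and Hopx, a homeodomain protein that restrains growth, by 1.22 ± 0.13. Nkx2-5 and Gata4, core factors named here after their values were seen, stood at -0.41 and -0.67.

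Imprinted genes fell more often than they rose. Of 19 imprinted genes 2 rose and 12 fell (median -1.74). Beside Mest, Plagl1 and Cdkn1c, the fetal growth factor Igf2 read 16503, 12570 and 12515 at E12.5 and 1206, 1360 and 1821 in adults, a difference of -3.28 ± 0.12, while a dimmer probe set of Igf2 stood at 0.57. Decorin (Dcn), a matrix proteoglycan imprinted in placenta, rose by 3.55 ± 0.11, from 1048 to 1166 at E12.5 to 11191 to 15319 in adults. Of 43 growth factor ligands, receptors and binders 11 rose and 10 fell, a balance near that of all genes, and 6 fell without replicate 3 of E12.5. Vegfa, the ligand that guides vessels, rose by 2.18 ± 0.2, the binder Igfbp6 was at least 3.03-fold higher, and Igfbp2 fell by 2.46 ± 0.28. In BMP and TGF-beta signalling 3 of 37 rose and 13 fell. Bmp7 was at least 6.81-fold lower, with 833.8 to 858.8 at E12.5 and at most 92.5 in adults, Bmp10, the ligand that sustains growth of embryonic trabeculae, fell by 2.05 ± 0.62, a call lost without replicate 3 of E12.5 (-1.92, limma adjusted p = 0.0514), and the endothelial receptor Acvrl1 rose by 1.8 ± 0.16. In Notch, Wnt and Hedgehog signalling 9 of 46 rose and 14 fell, with 5 and 7 without replicate 3 of E12.5 and 8 falls without replicate 2. Fzd2, a Wnt receptor, fell by 2.48 ± 0.32 and the Wnt binder Sfrp1 fell by 2.27 ± 0.36.

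Matrix genes moved in both directions. Of 57 measured 19 rose and 23 fell, with a median of -0.03. Among the falls, the hyaluronan-binding proteoglycan versican (Vcan) read 3478, 4382 and 3854 at E12.5 and 59.3, 202.7 and 414.6 in adults, a difference of -4.27 ± 0.43, its link protein Hapln1 was at least 2.74-fold lower, and the basement membrane protein Nid2 at least 8.55-fold. Col15a1, Dpt and Tnxb, which belong to mature basement membrane and fibril spacing, were at least 6.7-fold, 4.01-fold and 5.65-fold higher. The fibrillar collagens Col1a1 and Col3a1 stood at -1.22 ± 0.12 and -1.66 ± 0.2. The list thus held rises and falls of similar number.

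Genes of epicardium and fibroblasts were counted as 1 list, in which 5 of 20 rose and 10 fell. The list was not split by cell type, and its collagens Col1a1 and Col3a1, given above, were also lower in adults. Krt19, a keratin of mesothelium, was at least 4.26-fold lower, Upk3b, a mesothelial membrane protein, fell by 2.72 ± 0.3 from 1830 to 1947 at E12.5 to 112.9 to 448.2 in adults, and Postn, a matrix protein of cushions and activated fibroblasts, fell by 2.6 ± 0.22. Ddr2, a collagen receptor of fibroblasts, was at least 3.2-fold higher. In smooth muscle and pericytes 6 of 12 rose and 4 fell. Myh11, the smooth muscle myosin, and Smtn were at least 2.14-fold and 4.84-fold higher and the pericyte gene Rgs5 rose by 2.55 ± 0.28, while Acta2, Tagln and Cnn1 were lower. Myh11, Smtn and Rgs5 are known from vessel walls, and Acta2, Tagln and Cnn1 are also made by embryonic cardiomyocytes. Which cells gave these signals was not tested.

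Endothelial genes were mixed, with 6 of 17 higher and 4 lower. Aqp1, the water channel of capillaries, read 172.0, 80.9 and 81.6 at E12.5 and 932.2, 2198 and 2892 in adults, a rise of 4.31 ± 0.22, and the transcription factor Sox18 rose by 2.34 ± 0.14. The junction gene Cdh5 rose by 0.83 ± 0.13, the receptor Tek fell by 1.06 ± 0.17, and Eng stood at 0.09 ± 0.15. The summed signal of the 17 genes was 12249 to 12995 at E12.5 and 15378 to 20172 in adults. Of 11 atrial genes 0 rose and 6 fell, their sum going from 23675 to 28897 down to 2324 to 12707, and of 7 ventricular cardiomyocyte genes 5 rose and 0 fell. Summed signals, here and below, are led by the brightest probe sets. In the atrial list this was Myl7, with 15246 to 20457 at E12.5. Myl7, Nppa and Gja5 are known to be made by ventricles too in the embryo, and the share of atrial tissue in the dissections was not tested.

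Blood and immune genes went opposite ways. Of 22 erythroid genes 2 rose and 17 fell (median -2.63). The rises were Car1, under the control level on all 15 arrays, and Ank1, and neither kept its call without replicate 2 or without replicate 3 of E12.5. Over the list, the summed signal went from 78567 to 146491 at E12.5 to 9383 to 54640 in adults. The adult beta chain Hbb-b2 read 21357, 11552 and 13047 at E12.5 and 218.9, 8148 and 16553 in adults, a difference of -1.65 ± 0.32. That call rested on the 3-month females, at 823 on average against 7730 to 11800 in the other adult groups, and without them the difference was -0.68 (limma adjusted p = 0.11). Hba-a1 stood at -0.45 ± 0.27 and at 0.31 without them. The embryonic chains Hbb-y, Hba-x and Hbb-bh1 were lower on every adult array, 3-month females included, as the rule for the largest falls required.

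Macrophage markers rose, with 14 of 22 higher and 0 lower (median 1.26), and their sum went from 2421 to 3309 at E12.5 to 7206 to 11289 in adults. C1qa, the first chain of complement made by resident macrophages, read 141.1, 112.4 and 188.1 at E12.5 and 965.8, 1453 and 1649 in adults, a rise of 3.23 ± 0.13, Laptm5, a lysosomal protein of blood cells, was at least 4.41-fold higher and Cd14 rose by 1.3 ± 0.17. Adgre1, Itgam, Ptprc, Ccr2 and Lgals3 lay under the level of the non-mouse controls on all 15 arrays. Of 18 antigen presentation genes 13 rose and 0 fell (median 2.2), Psmb8 of the immunoproteasome at least 6.49-fold and the peptide transporter Tap2 at least 2.3-fold. Of 18 interferon response genes 10 rose and 0 fell (6 with the 1-year m group alone), Gbp2 at least 3.72-fold, Ifi27 by 2.79 ± 0.28 and Irf9 at least 2.91-fold. Of 15 complement and acute phase genes 8 rose and 1 fell, with ceruloplasmin (Cp) at least 4.57-fold higher. T and B cell genes gave 3 of 15 higher and 0 lower, with 0 to 4 higher and 0 to 1 lower when 1 array was left out (0 higher without replicate 3 of E12.5, 1 without replicate 1), and 7 of them, among these Cd3e, Cd3d and Cd8a, lay under the control level on all 15 arrays.

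Detoxification and stress genes shifted in part. Of 39 genes 19 rose and 9 fell (5 without replicate 3 of E12.5). Ephx2, the soluble epoxide hydrolase, rose by 3.33 ± 0.2, and Ephx1 and Gstt1, enzymes that clear reactive compounds, were at least 1.94-fold and 2.85-fold higher, whereas Hsp90aa1 fell by 1.76 ± 0.29 and thioredoxin Txn1 fell by 1.73 ± 0.11. Of 12 clock genes 7 rose and 1 fell. The repressors Nr1d2 and Per1 rose by 2.98 ± 0.21 and 2.44 ± 0.3 and the activator Arntl fell by 1.1 ± 0.31, with the hour of collection not given in the sources used here. Of 18 immediate early genes 7 rose and 2 fell, Klf9 by 2.71 ± 0.14, Klf4 by 1.74 ± 0.16 and Zfp36 by 1.7 ± 0.28 upward.

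Markers of tissues that could lie beside the ventricle were counted in the same way. Of 13 adipocyte genes 7 rose and 2 fell: the lipase Lipe was at least 3-fold higher and Cidea rose by 2.92 ± 0.31, while the lipogenic Scd2 fell by 3.57 ± 0.16 and Fasn fell by 1.19 ± 0.4. The Fasn call was lost without replicate 2 of E12.5 (-1.2, limma adjusted p = 0.0576) or replicate 3 (-1.12, limma adjusted p = 0.0801). Retn, Cidec and Ucp1 lay under the control level on all 15 arrays, and the summed signal of the list was 6852 to 8040 at E12.5 and 3950 to 7259 in adults. Of 17 neuron and Schwann cell genes 3 rose and 2 fell, of 19 skeletal muscle genes 2 rose and 4 fell, of 18 liver genes 2 rose and 2 fell, and of 8 lung and airway genes 0 passed the test in either direction, at limma's adjusted p. The share of these lists past the test was at or under that of all genes, except for adipocyte genes. However, 5 neuron and Schwann cell, 7 skeletal muscle, 4 liver and 2 lung genes lay under the control level on all 15 arrays. For these genes little change could have been read.

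The 3 ages between show how the embryonic state was left, though their values share the E12.5 arrays. For genes that changed at least 2-fold, the median share of the E12.5-to-adult log2 difference present in neonates was 55.7% over the 968 that rose and 46.7% over the 1025 that fell, and 98.1% and 95.2% at 4 weeks. Erythroid genes that fell had 98.9% of it in neonates, while fetal sarcomere genes had 0.9% in neonates, 6.4% at 1 week and 84.9% at 4 weeks. Tnni1 still averaged 27500 in neonates and 25200 at 1 week, like the 23900 of E12.5, and 484 at 4 weeks. Cell cycle genes that fell had 34.7%, 45% and 92.4%, and imprinted genes 16.4%, 42.6% and 88.2%. Hmga2, at 1180 at E12.5, stood at 89.5 in neonates already, whereas Plagl1 stood at 2150 against 2760 at E12.5.

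Genes that rose also kept different times. Fatty acid oxidation had 69.9% of its difference in neonates, antigen presentation 33.6% in neonates and 69% at 4 weeks, and branched-chain amino acid and ketone genes 30.3% in neonates, -1.7% at 1 week and 83.5% at 4 weeks. Mapt averaged 26 in neonates, no higher than the 44.4 of E12.5, then 1060 at 1 week and 3100 in adults. Cpxm2 averaged 62.8 at E12.5 and still 71.4 at 4 weeks, against 1640 in adults. Matrix genes overshot: 20 of 57 exceeded E12.5 and adults by at least 2-fold at an age between, against 176 of all 7406 genes. Col1a1 averaged 2070 at E12.5, 13000 in neonates, 15500 at 1 week, 4900 at 4 weeks and 908 in adults, and Postn 2710, 6790, 6080, 1100 and 458. Kcne1 peaked at 1890 at 1 week between 497 and 78.3, and Cldn5, a tight junction gene of endothelium, at 1770 between 24.6 and 250. A comparison of the ends alone shows none of these peaks.

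**Figure D4:**
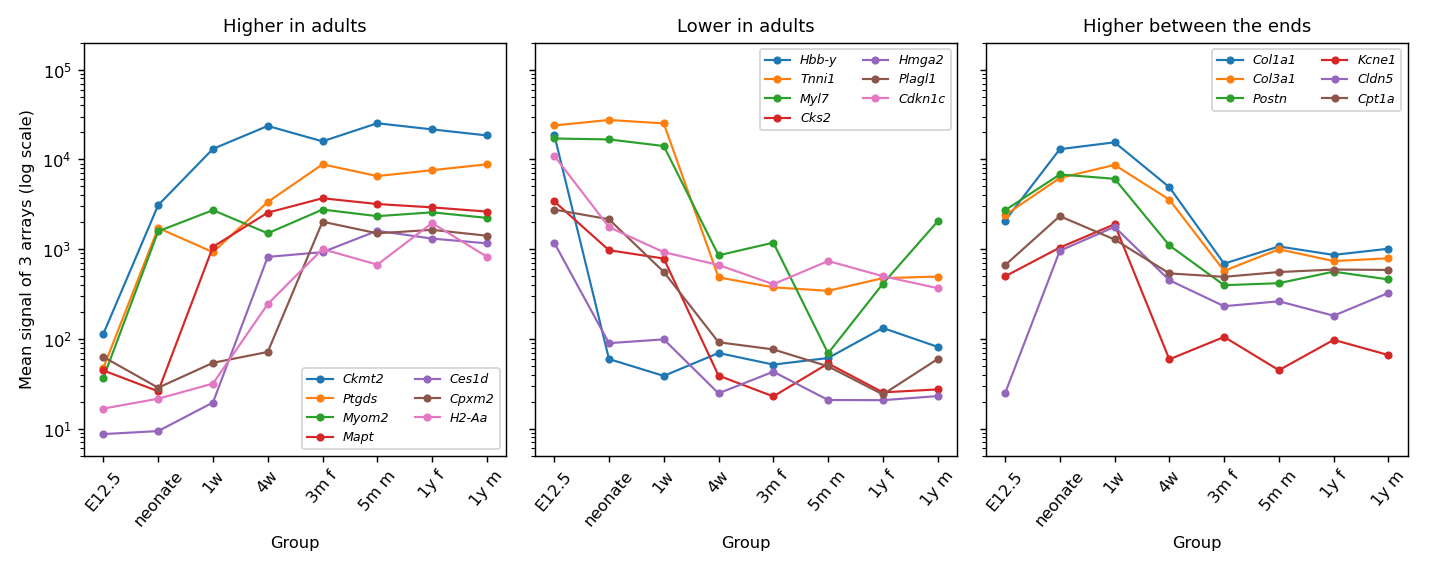
Mean signal of 3 arrays (y axis, log scale) of 20 genes in the 8 groups of the series (x axis), in panels for genes higher in adults, lower in adults and higher at an age between. Hbb-y is down at 59.5 in neonates, Tnni1 holds 25200 at 1 week and is at 484 at 4 weeks, and Col1a1 peaks at 15500 at 1 week.

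**Figure D5:**
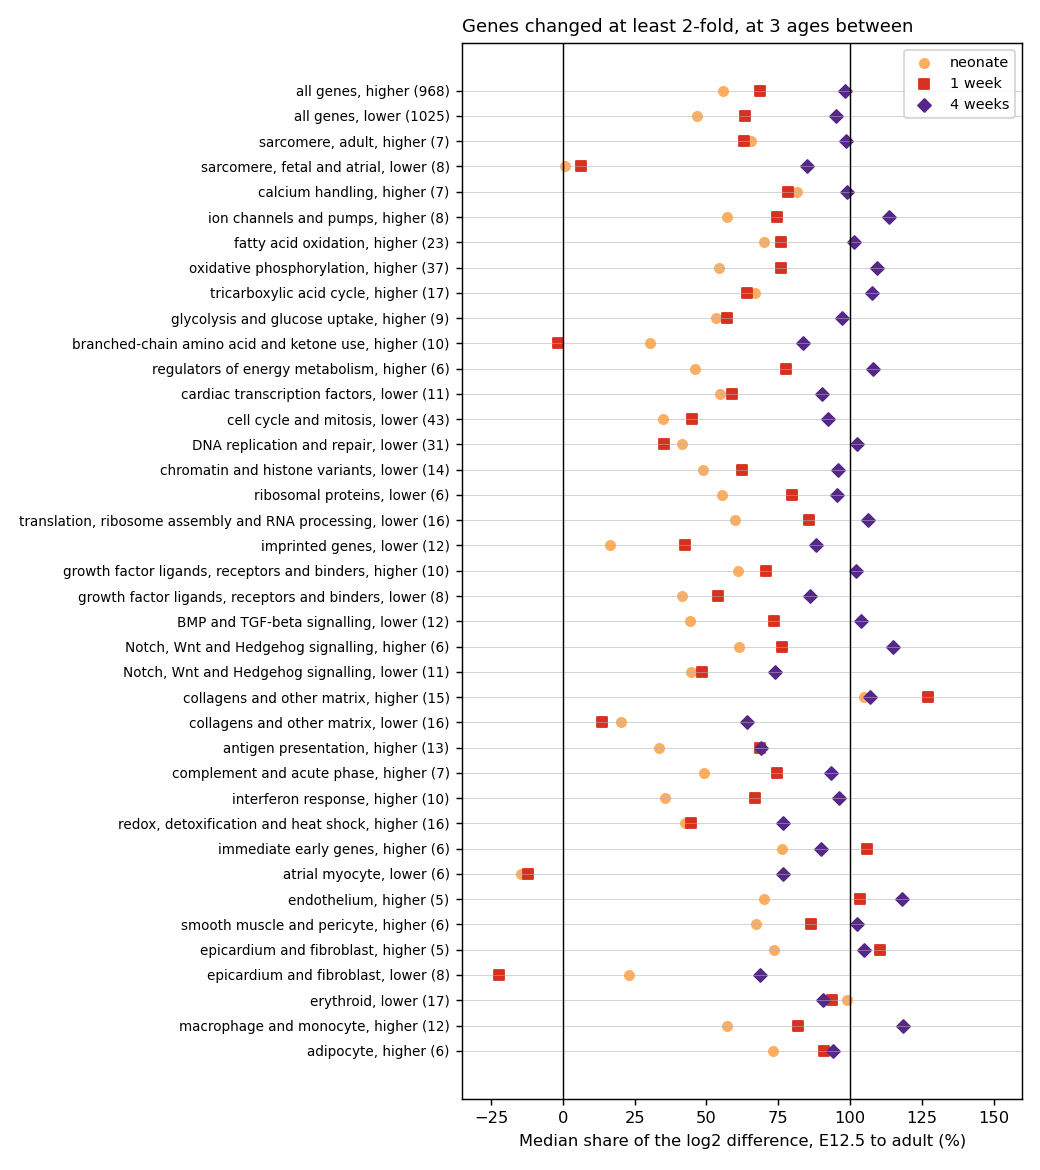
Median share of the E12.5-to-adult log2 difference (x axis, percent) present at each age between, for members of each list that changed at least 2-fold (number in brackets). Erythroid genes that fell stand at 98.9% in neonates and fetal sarcomere genes at 0.9%.

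The adult groups were also tested among themselves, where with 3 arrays each a count of calls does not measure how alike they are. A moderated F test over the 4 groups called 70 of 9952 probe sets, or 0.703%, at limma's adjusted p under 0.05, where 1137 had an unadjusted p under 0.05. That count was 222 without replicate 1 of 1-year m, 37 and 40 without replicates 2 and 3 of 1-year f, and 41 without replicate 3 of the 5-month males. Of these 70, 50 also differed between adults and E12.5. The young adults (3-month females and 5-month males) differed from E12.5 in 3675 probe sets (36.9%) and the 1-year groups in 3841 (38.6%), and these counts share the E12.5 arrays. Acta1 averaged 12400, 10100, 5830 and 12000 in 3-month females, 5-month males, 1-year f and 1-year m (limma F test, adjusted p = 0.0227), and Nppa 2960, 1030, 1390 and 2490 (limma adjusted p = 0.0156). Ckmt2, Tnni1, Mb and Tnni3 did not pass the F test, with adjusted p of 0.523, 0.528, 0.245 and 0.306.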

How the data were processed

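Signals were taken as the authors deposited them: 1 linear intensity per probe set and array, scaled so that the mean of non-zero probe sets, trimmed by 2%, was 500.44 to 500.6 on each array. Upstream software: not given in the sources used here. Probe sets were named through the platform annotation. Of the 9977 kept, 8724 had 1 symbol, 346 several and 907 none, and 8710 symbols matched RefSeq (GRCm38.p6) by Entrez ID.

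Signals under 14.2, the 25th percentile of the table, were set to that floor, and probe sets above it on fewer than 3 arrays were not tested. Log2 signals of all 24 arrays were fitted with 1 mean per group in limma 3.58.1 (R 4.3.3; lmFit, eBayes with a trend, 16 residual degrees of freedom). The mean of the 4 adult group means was set against E12.5, two-sided, with Benjamini-Hochberg adjustment over 9952 probe sets at 0.05. The median SE was 0.32. Each gene was read from its probe set of highest mean signal. Data with normal spread were simulated for this comparison (9952 probe sets), with changes placed only in probe sets of above-median mean signal. Far fewer probe sets were changed than were called in the data. Of these changes, 77 of 100 of 2-fold and 97 of 100 of 4-fold were recovered, with 9 calls among unchanged probe sets. Recovery in dimmer probe sets was not simulated. Genes were named by rule: the 14 largest rises and falls, members of the isoform pairs, and leading members of each list. The largest rises and falls were taken from genes past the threshold without overlap between E12.5 and adult arrays. Their higher group mean had to exceed the control level of 124.6, and clone names were skipped. Named genes outside the rule are marked as such. Members and lists were chosen with earlier results of these data known. Alternatives covered the floor, the scaling, the filter, the spread estimate, single adult groups and each array left out. The number of arrays limits the precision.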

Additional observations from a re-analysis of the deposited data

Results flagged for a closer look

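For 7 of the 228 genes the naming rule gave, and for Dnmt1, the difference from E12.5 was not the same in the 4 adult groups (limma moderated F test, Benjamini-Hochberg over all probe sets). The groups are given in the order 3-month females, 5-month males, 1-year f and 1-year m. The adult globins Hbb-b2 (adjusted p = 2.88e-06) and Hba-a1 (6.47e-06) were low in the 3-month females, with means of 823, 8970, 7730 and 11800 for Hbb-b2 and of 3450, 27300, 23900 and 22100 for Hba-a1. The peptide Nppb (0.00343) was highest in the 3-month females, at 20800, 6410, 7830 and 8910. Nppa (0.0156) had 2960, 1030, 1390 and 2490. Skeletal actin Acta1 (0.0227) was lowest in 1-year f, at 12400, 10100, 5830 and 12000. The intermediate filament nestin, Nes (0.0401), had 720, 1500, 1030 and 1120, and the RNA polymerase subunit Polr2a (0.0406) had 3410, 1560, 1710 and 2950. Dnmt1 (0.0013), named above for its promoter, stood at -4.57, -2.34, -4.52 and -2.69 against E12.5.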

How the results depend on the processing

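The count of 4081 probe sets was 3163 to 4134 under the other settings run, 3380 to 4080 with 1 array left out, and 3930 (1840 higher, 2090 lower) without the 3-month females, a setting chosen after seeing the data. With a 2-fold minimum it was 2562 (1201 higher, 1361 lower). The count of 70 among adult groups was 31 without the eBayes trend, 39 with only E12.5 and adult arrays, and 37 to 222 with 1 array left out. For the 3' to 5' ratios, the log2 difference, adult minus E12.5, was recomputed with 1 array left out. That of actin was 0.335 (without replicate 3 of E12.5) to 0.6015. That of Gapdh was 0.0428 to -0.0049, below 0 without replicate 3 of E12.5 and, at -0.0027, without replicate 1 of the 3-month females. Of 228 named genes under 31 settings, 42 lost their call at least once, 5 of them without keeping their direction: Car1, Myh1 and Fgg were at 0 with the floor at the non-mouse control level, and Ank1 and Ighm at -0.01 each with the 5-month males alone. Centring arrays on their medians put the median of all probe sets at 0.095, against 0.023. Of the signals tested, 37.9% lay under the control level, where folds are bounds at best. No paired analysis was possible because no label ties an embryo sample to an adult one.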

Other observations

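Some genes outside the rule for names, chosen after their values were seen, differed from E12.5 by an amount that varied over the adult groups (3-month females, 5-month males, 1-year f, 1-year m). Alas2, the enzyme that starts haem synthesis in red cells, stood at -6.33, -2.19, -2.70 and -1.83, lowest in the group with the lowest adult globins. Scd1, a desaturase of fatty acids, stood at 3.67, 1.38, 2.15 and 1.61. Xist, the RNA that coats the inactive X chromosome, stood at -0.60, -5.50, -0.14 and -5.55, near the embryonic level in 3-month females and 1-year f and far below it in 5-month males and 1-year m.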
